A study of Rattus norvegicus with 16 samples.

Results

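Vomeronasal receptor genes (Vom1r and Vom2r) were examined in embryonic rat kidney, a tissue in which they are not known to work. They were chosen as probe sets that carry a single gene symbol starting with Vom1r or Vom2r. At gene level, where each transcript has a single summary value, 44 of 21371 probe sets met this rule. They stood for 41 genes, 7 of the Vom1r family and 34 of the Vom2r family, and 1 of the 41 is annotated as a pseudogene. At exon level, where each short stretch of a gene has its own value, 473 of 213067 probe sets met it. These stood for 124 genes, 54 Vom1r and 70 Vom2r, of which 12 are annotated as pseudogenes. The 2 levels shared 38 genes and held 127 between them, out of 378 Vom1r and Vom2r symbols in the RefSeq gene table. A further 16 gene-level and 84 exon-level probe sets that name a vomeronasal receptor together with other symbols were left out of the members.

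The groups were whole kidneys of male MWF rats at embryonic day E15.5 and whole kidneys of male SHR rats at embryonic day E16.0, with 4 arrays each. MWF (Munich Wistar Frömter) is an inbred strain with albuminuria and SHR is the spontaneously hypertensive rat, and no treatment was given to either. Strain and embryonic stage cannot be told apart in this design, so that every difference, given as MWF minus SHR, holds both. Nothing in the labels states that replicates are different animals or litters, and p-values then measure only the spread between these samples. The same 8 arrays were deposited at both levels, and agreement between levels is therefore no repeat measurement.

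The vomeronasal organ is a chemosensory structure at the base of the nasal septum that detects pheromones and other social cues. Its sensory neurons lie in an apical layer, which expresses V1R receptors together with the G protein subunit Gnai2, and a basal layer, which expresses V2R receptors, with a large ligand-binding extracellular part, together with Gnao1. Both signal through the ion channel Trpc2. A neuron expresses very few of these receptor genes, most of which lie in clusters of close copies, many of them pseudogenes. Because other tissues are not expected to use them, their probe sets were taken as a rough estimate of the intensity an array reports without a matching transcript. Whether kidney lacks a transcript matching each of these probe sets was not tested.

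RefSeq promoter windows show the sequence around the annotated starts of these genes. Each window holds 250 bases before and 50 bases after an annotated start in assembly GRCr8. Among the windows printed below, those 50 bases begin with ATG, the letters of a start codon, in Vom2r6, Vom2r16 and Vom1r93. Some windows not printed do so too, such as that of Vom2r5. There the annotated start may be that of the coding sequence. Whether such windows hold the promoter was not tested. There were 172 Vom1r and Vom2r windows, including 38 windows for 37 of the 41 gene-level genes. The 6 shown are those of the brightest and the dimmest gene-level Vom1r probe set, of 3 Vom2r genes whose strain difference passed the test, and of the gene-level member with the most CpG steps. Capitals mark each CG. They are Vom1r90 (chr4:123705227-123705526, minus strand), Vom1r93 (chr4:123798818-123799117, plus strand), Vom2r16 (chr1:71909914-71910213, plus strand), Vom2r6 (chr1:3025673-3025972, plus strand), Vom2r56 (chr7:18008738-18009037, minus strand) and Vom2r75 (chr18:114147-114446, minus strand).
Vom1r90: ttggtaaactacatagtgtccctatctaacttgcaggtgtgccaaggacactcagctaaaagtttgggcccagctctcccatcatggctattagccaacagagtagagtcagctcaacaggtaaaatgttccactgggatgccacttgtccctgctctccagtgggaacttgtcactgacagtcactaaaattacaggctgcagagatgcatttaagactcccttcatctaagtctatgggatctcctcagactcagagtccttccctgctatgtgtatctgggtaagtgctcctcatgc
Vom1r93: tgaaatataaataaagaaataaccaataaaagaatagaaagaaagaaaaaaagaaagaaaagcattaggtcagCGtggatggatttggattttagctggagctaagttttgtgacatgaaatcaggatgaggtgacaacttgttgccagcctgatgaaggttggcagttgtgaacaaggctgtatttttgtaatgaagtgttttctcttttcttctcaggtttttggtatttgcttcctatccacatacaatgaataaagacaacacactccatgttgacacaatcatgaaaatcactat
Vom2r16: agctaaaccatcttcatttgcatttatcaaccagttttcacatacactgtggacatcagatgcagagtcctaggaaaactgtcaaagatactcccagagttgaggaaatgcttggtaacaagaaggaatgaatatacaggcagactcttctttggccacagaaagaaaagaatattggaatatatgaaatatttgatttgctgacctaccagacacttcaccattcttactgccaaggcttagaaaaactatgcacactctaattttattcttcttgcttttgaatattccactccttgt
Vom2r6: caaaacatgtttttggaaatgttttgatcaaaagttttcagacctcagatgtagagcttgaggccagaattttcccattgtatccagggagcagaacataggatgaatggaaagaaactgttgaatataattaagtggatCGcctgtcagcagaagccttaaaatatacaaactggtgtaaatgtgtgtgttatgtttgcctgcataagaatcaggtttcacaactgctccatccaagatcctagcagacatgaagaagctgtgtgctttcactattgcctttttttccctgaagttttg
Vom2r56: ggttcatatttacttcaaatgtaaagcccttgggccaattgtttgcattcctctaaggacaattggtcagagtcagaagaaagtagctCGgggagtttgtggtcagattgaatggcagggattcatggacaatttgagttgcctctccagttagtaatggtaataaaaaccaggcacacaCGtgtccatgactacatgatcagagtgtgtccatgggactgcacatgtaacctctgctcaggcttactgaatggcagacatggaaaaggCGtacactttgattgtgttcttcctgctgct
Vom2r75: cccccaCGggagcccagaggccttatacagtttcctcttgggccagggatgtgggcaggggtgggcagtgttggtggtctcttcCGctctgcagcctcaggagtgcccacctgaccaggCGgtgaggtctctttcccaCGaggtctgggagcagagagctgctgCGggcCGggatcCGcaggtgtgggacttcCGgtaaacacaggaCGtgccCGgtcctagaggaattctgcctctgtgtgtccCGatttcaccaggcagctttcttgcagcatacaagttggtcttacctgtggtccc

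The windows were poor in G and C. The median G+C content was 37.0% over the 172 vomeronasal windows, against 51.67% over all 33469 windows, 35.33% over 1086 odorant receptor windows and 64.5% over 16 windows of embryonic kidney genes. The median vomeronasal window held 1 CG, against 7 over all windows and 21 in the kidney genes, and 35.5% of vomeronasal windows held none, against 5.47% of all. Among those printed, Vom2r16 and Vom1r90 had no CG, Vom2r6 and Vom1r93 had 1, Vom2r56 had 3 and Vom2r75 had 11. The G+C content of Vom2r75 was 61.33%, the highest of the 6, and that of Vom1r93 was 34.33%, the lowest of the 6.

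Short motifs were searched as exact letters on both strands. TATAAA, the core of the TATA box, occurred in 40.7% of the vomeronasal windows, against 14.2% of all windows and 37.8% of odorant receptor windows. GGGCGG, the GC box, occurred in 1.74%, against 33.1% of all and 1.2% of odorant receptor windows. TAATTA, a homeodomain core, occurred in 18.6%, against 5.36% and 19.2%. The CCAAT box letters occurred in 35.5%, against 37.5% and 43.9%. The shares were thus near those of odorant receptors, and the part of base composition in them was not tested. Of the 6 printed, Vom1r93 held TATAAA and Vom2r6 held TAATTA, and the CCAAT letters stood in Vom1r93, Vom2r16 and Vom2r56. Matches of different motifs could share end letters, and they describe letters and not bound sites.

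**Figure D1:**
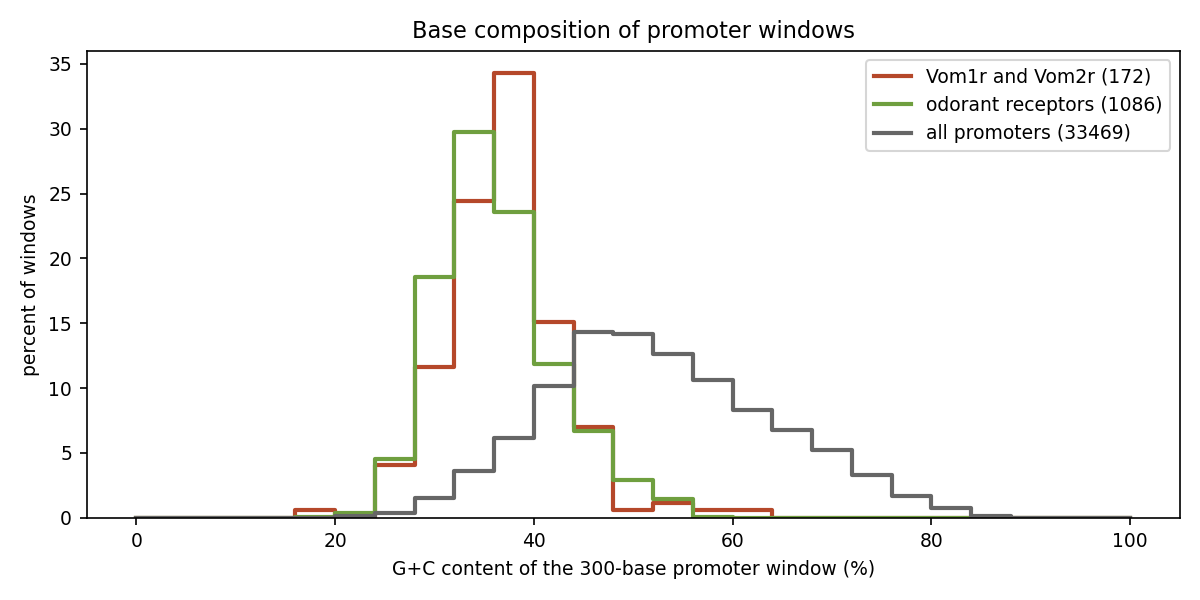
G+C content of promoter windows, as percent of windows (y axis) in bins of G+C content (x axis, %), for Vom1r and Vom2r genes, odorant receptors and all RefSeq promoters. The vomeronasal windows, with a median of 37.0%, lie with those of odorant receptors and to the left of all promoters, with a median of 51.67%.

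The arrays carried the signature of embryonic kidney. Of 16 kidney genes measured at gene level, 14 exceeded 8.03, the 95th percentile of the vomeronasal means on the log2 intensity scale. The exceptions were Nphs1, the podocyte gene of nephrin, at 7.26, and Wnt9b, a ureteric bud signal, at 7.61. At exon level the 189 probe sets of 19 kidney genes had a median of 9.39, against 7.93 over all. The nephron progenitor genes Six2 and Eya1, not measured at gene level, had medians of 10.73 and 12.45. The exon-level medians of Nphs1, Osr1, Wnt9b and Wnt11 lay under 7.93, at 5.27, 5.88, 7.245 and 7.35. Array medians over all probe sets lay between 8.17 and 8.21 at gene level and between 7.93 and 7.99 at exon level. Some arrays stood apart in 4 sympathoadrenal genes (Th, Dbh, Chga and Chgb), whose mean was 8.14, 6.14, 6.29 and 6.30 in MWF replicates 1 to 4, against 10.78, 6.04, 11.00 and 11.16 in SHR replicates 1 to 4. MWF replicate 1 was above the other MWF arrays and SHR replicate 2 far below the other SHR arrays, so counts are also given without this pair. All 5 red cell genes measured were higher in MWF, 4 of them past the test (median difference 0.80). The part of either cell type in the results below was not tested.

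The vomeronasal receptors were dim as a group. Their means over the 8 arrays had a median of 6.51, with quartiles at 6.26 and 7.05, against a median of 8.17 over all gene-level probe sets. Of the 44, 42 lay under the median of all, 30 among the dimmest 20% and 23 among the dimmest 10%. The median member stood at percentile 7.98 of all probe sets. In tissue that holds several cell types, a low value cannot tell fewer expressing cells from less RNA per cell.

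Both families and other receptor families of the nose lay at this level. The median was 6.44 for the 7 Vom1r and 6.61 for the 37 Vom2r probe sets, against 6.65 for 61 odorant receptor and 6.72 for 3 trace amine receptor probe sets. Genes of other specialised cells were somewhat higher, with 6.81 for 9 sperm genes and 7.35 for 7 photoreceptor genes. The latter lay above the third quartile of the members, 7.05, and under the median of all probe sets, 8.17. Kidney genes had 9.44 and widely expressed genes 12.79. The value of 8.03, under which 95% of the vomeronasal means fell, was exceeded by 52.7% of all probe sets, by all 35 probe sets of widely expressed genes, by 5 of 61 odorant receptors, by 2 of 9 sperm genes (Tssk2 at 10.87 and Prm1 at 8.12) and by none of the 7 photoreceptor genes. At exon level the 3 probe sets of Tssk2 had a median of 5.57 and a highest mean of 10.87. The 4 of Prm1 had a median of 7.64 and a highest mean of 9.08. The values above are levels of different probe sets and do not rank transcripts, since probe sets differ in brightness.

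**Figure D2:**
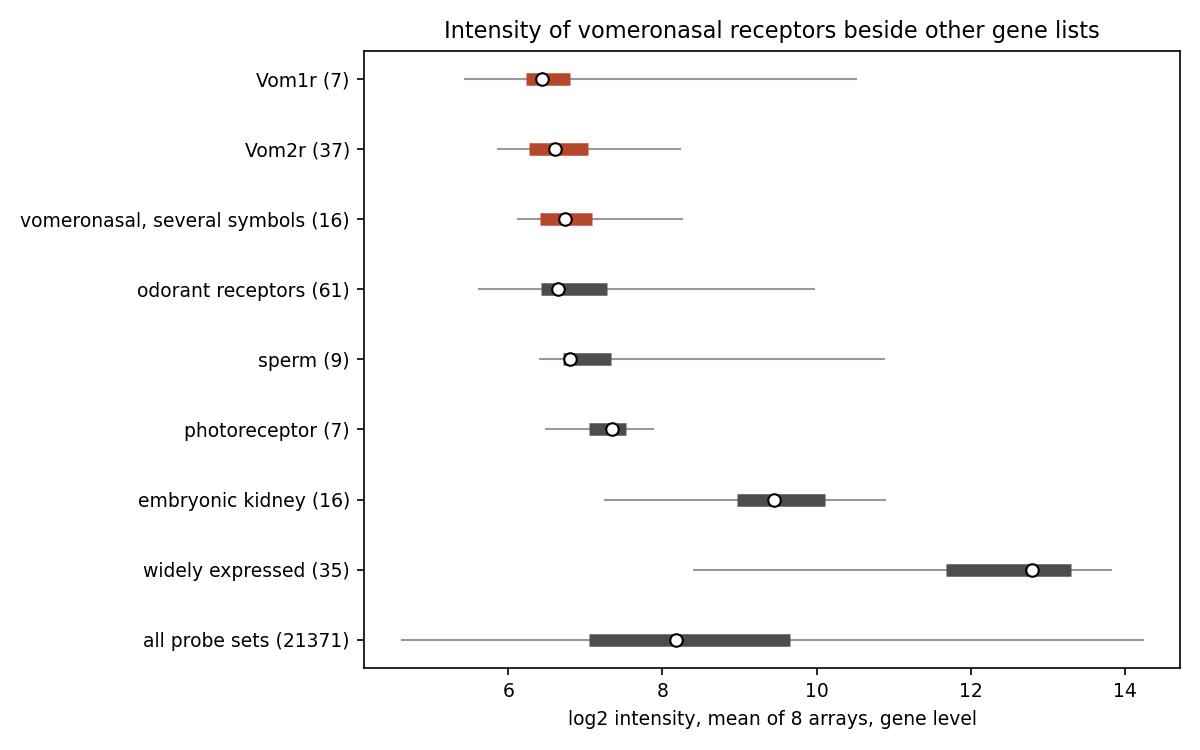
Mean log2 intensity over the 8 arrays (x axis, gene level) for each list of probe sets, with the number of probe sets in brackets; circles are medians, thick bars the middle 50% and thin lines the full range. The Vom1r and Vom2r medians, 6.44 and 6.61, lie beside that of odorant receptors, 6.65, and below those of kidney and widely expressed genes, 9.44 and 12.79.

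The partners of these receptors in vomeronasal neurons were measured too. Gnai2, which many tissues express, reached 11.97 at gene level and Gnao1 8.87, with Ano1, a chloride channel of several epithelia, at 9.36. Gnal and Stoml3 had 8.52 and 8.19, so that 5 of the 8 genes of this list measured at gene level exceeded 8.03. At exon level the medians of Gnai2, Gnao1 and Ano1 were 12.41, 9.07 and 9.34. Those of Gnal and Stoml3 were lower, at 7.11 and 5.24, and the brightest of the 8 Stoml3 probe sets had 8.195. Gng8 and Adcy3 had 7.33 and 7.38. Tfap2e, a transcription factor of basal vomeronasal neurons, had 6.53, in the range of the receptors. Of 8 such genes measured at gene level of a list of 14, none passed the test between strains and 1, Gnao1, had an unadjusted p under 0.05 by limma. At exon level Trpc2 had a median of 6.12 over 29 probe sets, and Omp, the marker of mature olfactory neurons, 5.99 in its 1 probe set. Cnga2 and Cnga4, channel subunits of olfactory neurons, had medians of 5.03 and 4.88. The exon-level values of Trpc2, Omp, Cnga2 and Cnga4 were below the exon-level median of all probe sets, 7.93, although the brightest Trpc2 probe set had 10.45.

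The members had nearly the same median on each array, in values that appear already normalized between arrays. The part of that normalization in the agreement was not tested. The median over the 44 members was 6.54, 6.64, 6.66 and 6.60 in MWF replicates 1 to 4, against 6.58, 6.52, 6.64 and 6.63 in SHR replicates 1 to 4. The strains overlapped in this median, and between 8.58% and 12.79% of all probe sets of an array lay below it.

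A few members stood far above the rest. Vom1r90, the brightest, had 10.61, 10.52, 10.56 and 10.64 in MWF arrays, against 10.46, 10.27, 10.50 and 10.51 in SHR arrays. All 8 values lay above the third quartile of all probe sets, 9.65, and the strains did not overlap, but the difference did not pass the test (difference 0.15 ± 0.07, SE, adjusted p = 0.25 by limma with Benjamini-Hochberg adjustment). At exon level this brightness belonged to 1 of its 5 probe sets, at 10.51, while the other 4 had means between 4.40 and 5.16. The RefSeq gene table places a pseudogene, Polr2m-ps3, over the Vom1r90 gene, and which transcript the bright probe set measures was not tested.

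The next brightest members were Vom2r54, Vom2r19, Vom2r60, Vom2r75 and Vom2r80, with means of 8.22, 8.08, 7.76, 7.68 and 7.42. Each of these values, like that of Vom1r90, was also the value of a single exon-level probe set of the gene. For Vom2r54 the other exon-level probe sets had means between 4.13 and 5.99, and for Vom2r75 between 4.55 and 5.89. Vom2r54 had 7.72, 7.92, 8.63 and 8.00 in MWF arrays, against 8.09, 7.99, 8.47 and 8.98 in SHR arrays, which overlapped.

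At the dim end stood Vom1r93, Vom2r61, Vom2r7, Vom2r23, Vom2r50 and a probe set of Vom2r56, with means between 5.44 and 5.98. Vom1r93, the dimmest, had 5.54, 5.29, 4.79 and 5.50 in MWF arrays, against 5.66, 5.41, 5.76 and 5.54 in SHR arrays. Of the 3 noisiest members, Vom2r61 and Vom2r50 were among these dim ones. Vom2r61 spread from 5.70 to 6.84 in MWF and from 4.81 to 6.30 in SHR, and Vom2r50 from 5.16 to 6.62 in MWF and from 5.51 to 6.55 in SHR. Vom2r31, Vom1r90 and Vom2r28 were the steadiest, with within-strain SDs of 0.077, 0.086 and 0.101. The median within-strain SD of the members was 0.223, against 0.122 over all probe sets and 0.2 among the dimmest 10%. In 29 of the 44 members all 8 arrays lay within 1 log2 unit.

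**Figure D3:**
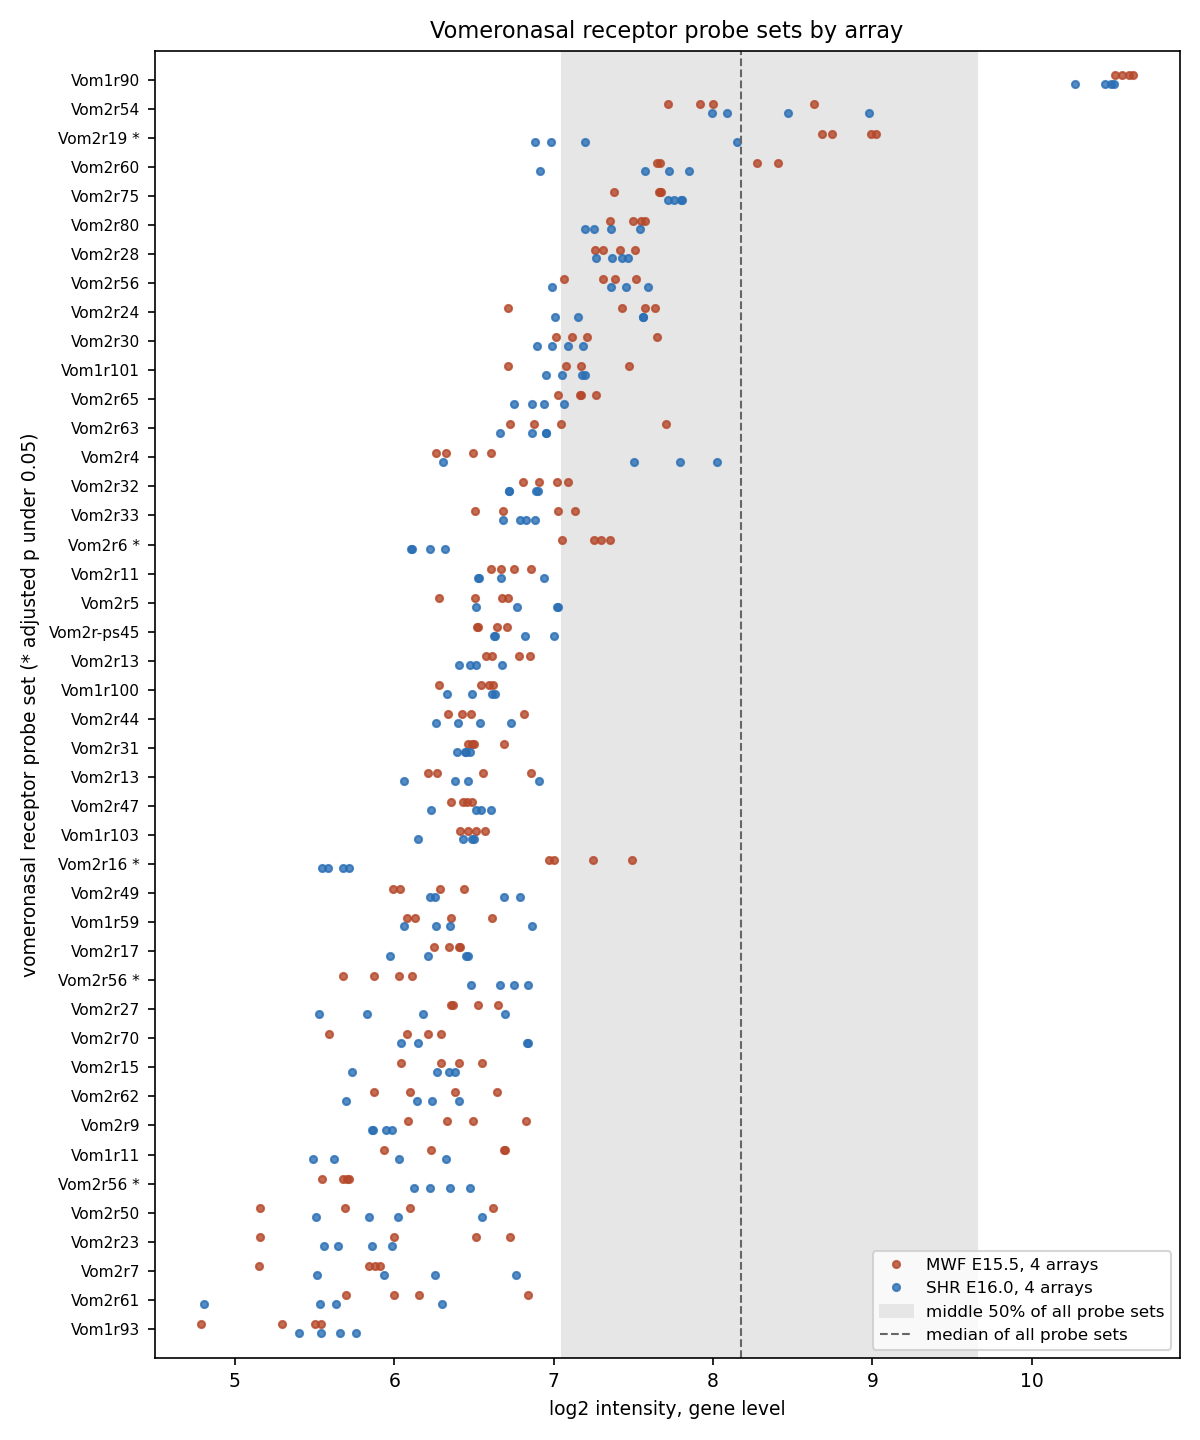
Log2 intensity (x axis, gene level) of every vomeronasal receptor probe set on each of the 8 arrays, sorted by mean, with 4 MWF and 4 SHR arrays per row; the grey band holds the middle 50% of all probe sets and the dashed line is their median. Of 44 rows, 42 have a mean left of the dashed line at 8.17, and the 5 rows with an asterisk passed the test between strains.

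The strain comparison asked how often kidneys of the strains differ in genes that kidney is not expected to use. At an adjusted p under 0.05, 5 of 44 members (11.4%) passed, against 6.58% of all gene-level probe sets. As 2 of the 5 belong to the gene Vom2r56, 1 probe set per gene, the brightest, gave 3 of 41 (7.32%). Of the 5 calls, 3 were higher in MWF, against a background of 3.18% of all probe sets, and 2 were lower, against 3.4%. At an unadjusted p under 0.05, 9 members (20.5%) passed, against 22.4% of all. The strains did not overlap in 8 members (18.2%), against 14.4% of all. With 44 members these shares rest on a few probe sets each, and the share of calls over all probe sets was 5.99% in the dimmest 10% and 6.64% in the next 10%. None of the 61 odorant receptor probe sets was called, 7 of them had an unadjusted p under 0.05 by limma, and 5 did not overlap (8.2%). Of 7 photoreceptor probe sets, 1 was called (14.3%) and 2 did not overlap (28.6%). The called one was Gnat1, higher in MWF (difference 0.38, limma adjusted p = 0.011). Of 9 sperm probe sets, 0 were called and 1 did not overlap (11.1%). Of the 16 vomeronasal probe sets with several symbols, 2 were called, both higher in MWF.

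Most members differed little. The absolute difference had a median of 0.18 over the members, against 0.10 over all probe sets and 0.16 over the dimmest 10%. It was under 0.2 in 23 members, under 0.5 in 35 and at least 1 in 3. The signed difference was above 0 in 27 and below 0 in 17, with a median of 0.05, against 0.02 over all probe sets. Leaving out MWF replicate 1 and SHR replicate 2 gave 7 called members (15.9%), against 10.2% of all probe sets, with Vom2r23 and Vom2r65 added.

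**Figure D4:**
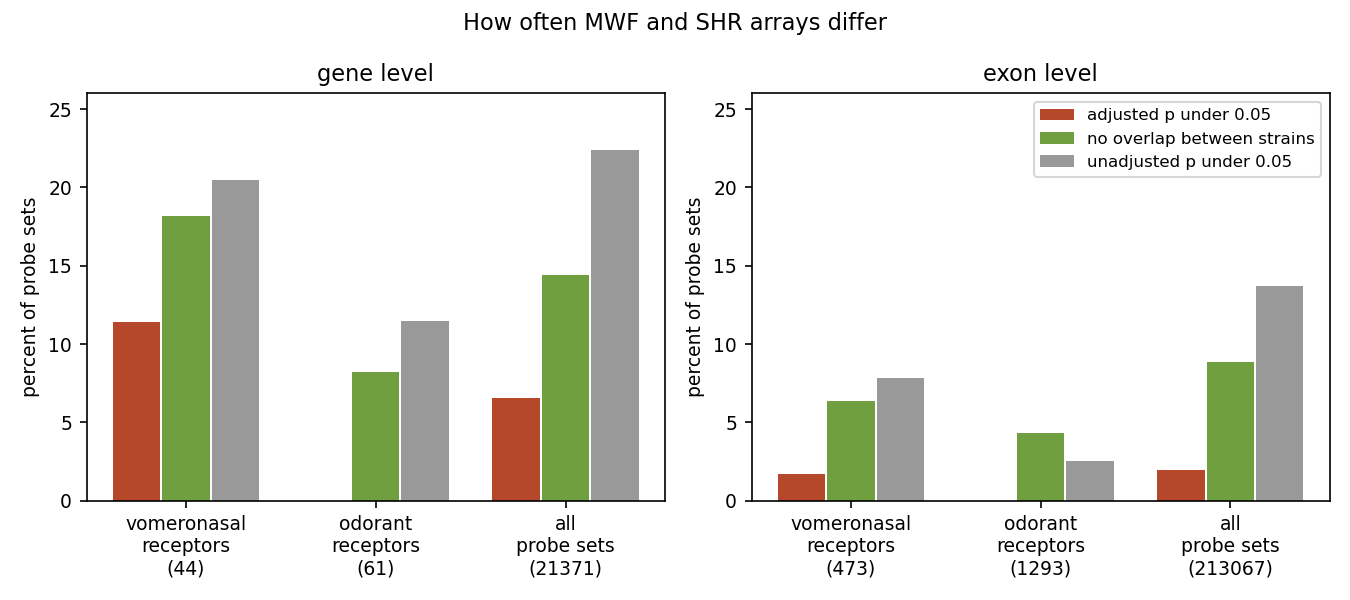
Percent of probe sets (y axis) that differ between MWF and SHR arrays by each of 3 rules, for vomeronasal receptors, odorant receptors and all probe sets, at gene level (left) and exon level (right), with the number of probe sets in brackets. Vomeronasal receptors reach 11.4% called, against 6.58% of all, at gene level and 1.69%, against 1.93% of all, at exon level, and no odorant receptor probe set is called at either level.

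All 5 calls were among the 37 Vom2r probe sets (13.5%, against 6.58% of all). None of the 7 Vom1r probe sets passed, too few to set the families apart, with an unadjusted p under 0.05 by limma in 1 (Vom1r11). Vom2r16 rose in MWF, with 7.49, 7.00, 7.25 and 6.97 in MWF arrays, against 5.55, 5.59, 5.72 and 5.68 in SHR arrays. The SHR values lie in the range of the dimmest 10% of all probe sets, which ends at 6.57, and the MWF values on both sides of the lower quartile of all probe sets, 7.05. The difference was 1.55 ± 0.11 on the log2 scale (SE, n = 4 each), with an adjusted p of 9.0e-05 by limma.

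Vom2r6 rose in the same direction. It had 7.25, 7.05, 7.35 and 7.30 in MWF arrays, against 6.23, 6.11, 6.32 and 6.11 in SHR arrays, and the lowest MWF value was above the highest SHR value. The difference was 1.05 ± 0.08 (SE), with an adjusted p of 0.00014 by limma.

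Vom2r19 rose as well, with a wide spread in SHR. It had 8.99, 8.68, 9.02 and 8.75 in MWF arrays, against 6.88, 6.99, 7.20 and 8.15 in SHR arrays, where replicate 4 lay between the other SHR arrays and MWF. The difference was 1.56 ± 0.25 (SE), with an adjusted p of 0.0071 by limma.

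Vom2r56, measured by 3 gene-level probe sets, fell in 2 of them. The probe set 10901194 had 5.55, 5.70, 5.68 and 5.71 in MWF arrays, against 6.48, 6.23, 6.35 and 6.12 in SHR arrays (difference -0.63 ± 0.08, SE, limma adjusted p = 0.0029). The probe set 10894401 had 5.68, 6.11, 6.03 and 5.87 in MWF arrays, against 6.84, 6.67, 6.75 and 6.48 in SHR arrays (difference -0.76 ± 0.11, SE, limma adjusted p = 0.0041). The brightest of the 3, probe set 10901190, averaged 7.32 ± 0.19 in MWF and 7.35 ± 0.26 in SHR (SD, n = 4 each) and did not pass. Probe sets of Vom2r56 therefore disagreed. With 1 probe set per gene, the brightest, the calls were Vom2r16, Vom2r6 and Vom2r19 only.

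The other non-overlapping members were Vom1r90, Vom2r75 and Vom2r9, none of which passed the test. Vom2r9 had 6.83, 6.33, 6.49 and 6.09 in MWF arrays, against 5.86, 5.99, 5.95 and 5.86 in SHR arrays (difference 0.52, limma adjusted p = 0.058). Vom2r4 had the largest difference below 0. It had 6.33, 6.49, 6.61 and 6.26 in MWF arrays, against 7.51, 7.79, 8.03 and 6.31 in SHR arrays, so that SHR replicate 4 lay with the MWF arrays. The difference was -0.99 (limma adjusted p = 0.10) with all arrays and -1.35 (adjusted p = 0.0015) without SHR replicate 4. The rest of the 5 largest differences in each direction, Vom2r61 (0.61), Vom1r11 (0.52), Vom2r70 (-0.42) and Vom2r7 (-0.42), had overlapping strains and did not pass. Vom2r30, Vom2r15, Vom2r62 and Vom2r11 had gene-level differences between 0.05 and 0.21 and exon-level median differences below 0.

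Members with a strain difference followed each other across arrays. The highest Pearson correlations with Vom2r16 over the 8 arrays were those of Vom2r6 (0.974), Vom2r19 (0.919) and Vom2r9 (0.891). For the Vom2r56 probe set 10901194 they were those of the other called probe set of the gene (0.977), Vom2r4 (0.804) and Vom2r75 (0.651). The 8 points fall into 2 strains, so each coefficient mostly holds the strain difference itself. Over all pairs of members the median coefficient was 0.00778.

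The exon level covered more of the families, at lower intensities. The 473 member probe sets had a median of 5.34, against 7.93 over all, and 455 of them lay under the median of all. The 18 above it came from 9 genes. Vom2r-ps24 and Vom2r-ps59, both annotated as pseudogenes on chromosome 1, held 5 each, Vom2r37 held 2, and Vom1r90, Vom2r19, Vom2r28, Vom2r38, Vom2r54 and Vom2r63 held 1 each. The 8 probe sets of Vom2r-ps59 ran from 6.36 to 9.20 in mean intensity, and the 11 of Vom2r-ps24 from 4.60 to 9.65. None of them passed the test, and 1 of Vom2r-ps59 had an unadjusted p under 0.05 by limma.

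Few exon-level member probe sets passed the test between strains. On simulated data the exon-level fit recovered fewer known changes than the gene-level fit, so few calls need not mean few differences. Of the 473, 8 passed (1.69%), against 1.93% of all exon-level probe sets. Higher in MWF were 6, against a background of 0.892%, and lower were 2, against 1.04%. An unadjusted p under 0.05 was found in 37 (7.82%), against 13.7% of all, and no overlap in 30 (6.34%), against 8.83% of all. By family, 8 of 385 Vom2r probe sets were called (2.08%), against 1.93% of all exon-level probe sets. None of 88 Vom1r probe sets was called, and 2 of them had an unadjusted p under 0.05 by limma. At a share near 1.93%, 88 probe sets hold few calls, so these counts do not set the families apart. The median absolute difference was 0.13 in Vom2r and 0.06 in Vom1r, beside within-strain SDs of 0.220 and 0.115, and the difference between the families was not tested. None of 1293 odorant receptor probe sets was called at exon level, and 33 (2.55%) had an unadjusted p under 0.05 by limma. Of the 84 exon-level probe sets that name several symbols, 7 were called (8.33%), 1 higher and 6 lower.

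The 8 called probe sets came from 5 of the 124 genes. In Vom2r16 all 5 probe sets were higher in MWF with no overlap, and 2 passed. Probe set 10703597 had 8.98, 8.85, 9.17 and 8.70 in MWF arrays, against 5.56, 5.71, 6.19 and 5.92 in SHR arrays. This was the largest difference among the called exon-level members, 3.08 ± 0.16 on the log2 scale (SE), with a limma adjusted p of 2.73e-05. Its neighbour 10703598 had a difference of 1.46. The other 3 differed by 1.12, 0.70 and 0.95 and did not pass.

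In Vom2r6 all 8 probe sets were higher in MWF, 4 without overlap, and 3 passed, with differences of 1.71, 1.10 and 0.84. Probe set 10701656 had 7.59, 7.55, 7.55 and 7.71 in MWF arrays, against 6.18, 6.81, 6.26 and 6.74 in SHR arrays. The 2 dimmest probe sets of Vom2r6, with means of 4.30 and 4.55, had differences of 0.24 and 0.08. In Vom2r19 the difference lay in 1 of 3 probe sets, 10703617, whose values equalled the gene-level ones. The RefSeq gene table places Vom2r22, Vom2r-ps36 and LOC108349837 over Vom2r19, and which of them this probe set measures was not tested. The other 2 had differences of -0.13 and 0.09.

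In Vom2r56 the exon-level probe set 10894404 fell, with 4.57, 4.89, 5.07 and 4.79 in MWF arrays, against 6.06, 5.37, 6.03 and 5.78 in SHR arrays (difference -0.98, limma adjusted p = 0.026). The pseudogene Vom2r-ps53 fell in 1 of its 6 probe sets, with 7.23, 7.61, 7.42 and 7.22 in MWF arrays, against 7.93, 7.90, 7.86 and 7.90 in SHR arrays. Its difference was -0.53, with a limma adjusted p of 0.046, close to the threshold.

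The exon-level calls differed in how firmly they held. Both of Vom2r16 and probe set 10701656 of Vom2r6 held in all 14 alternatives that tested them. That of Vom2r19 was lost when any MWF array, SHR replicate 1 or SHR replicate 3 was left out (highest adjusted p over the alternatives 0.09), and that of Vom2r56 without MWF replicate 1, 2 or 4 and without SHR replicate 1, 3 or 4 (highest adjusted p 0.0835). Of the other 2 calls of Vom2r6, the larger was lost when any MWF array or SHR replicate 4 was left out, and the smaller without MWF replicate 1 or 2 and without SHR replicate 1 or 4, with highest adjusted p-values of 0.0892 and 0.0825. That of Vom2r-ps53 held in 3 of 14 alternatives (highest adjusted p 0.14). It was lost when any array other than MWF replicate 2 was left out, with weights per array and with a trended robust variance. Without MWF replicate 1 and SHR replicate 2 together, the calls of Vom2r19, Vom2r-ps53 and the same 2 of Vom2r6 were lost. With a block for the replicate number, those of Vom2r19, Vom2r56 and Vom2r-ps53 were lost. All 5 gene-level calls held in each of 14 alternatives.

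**Figure D5:**
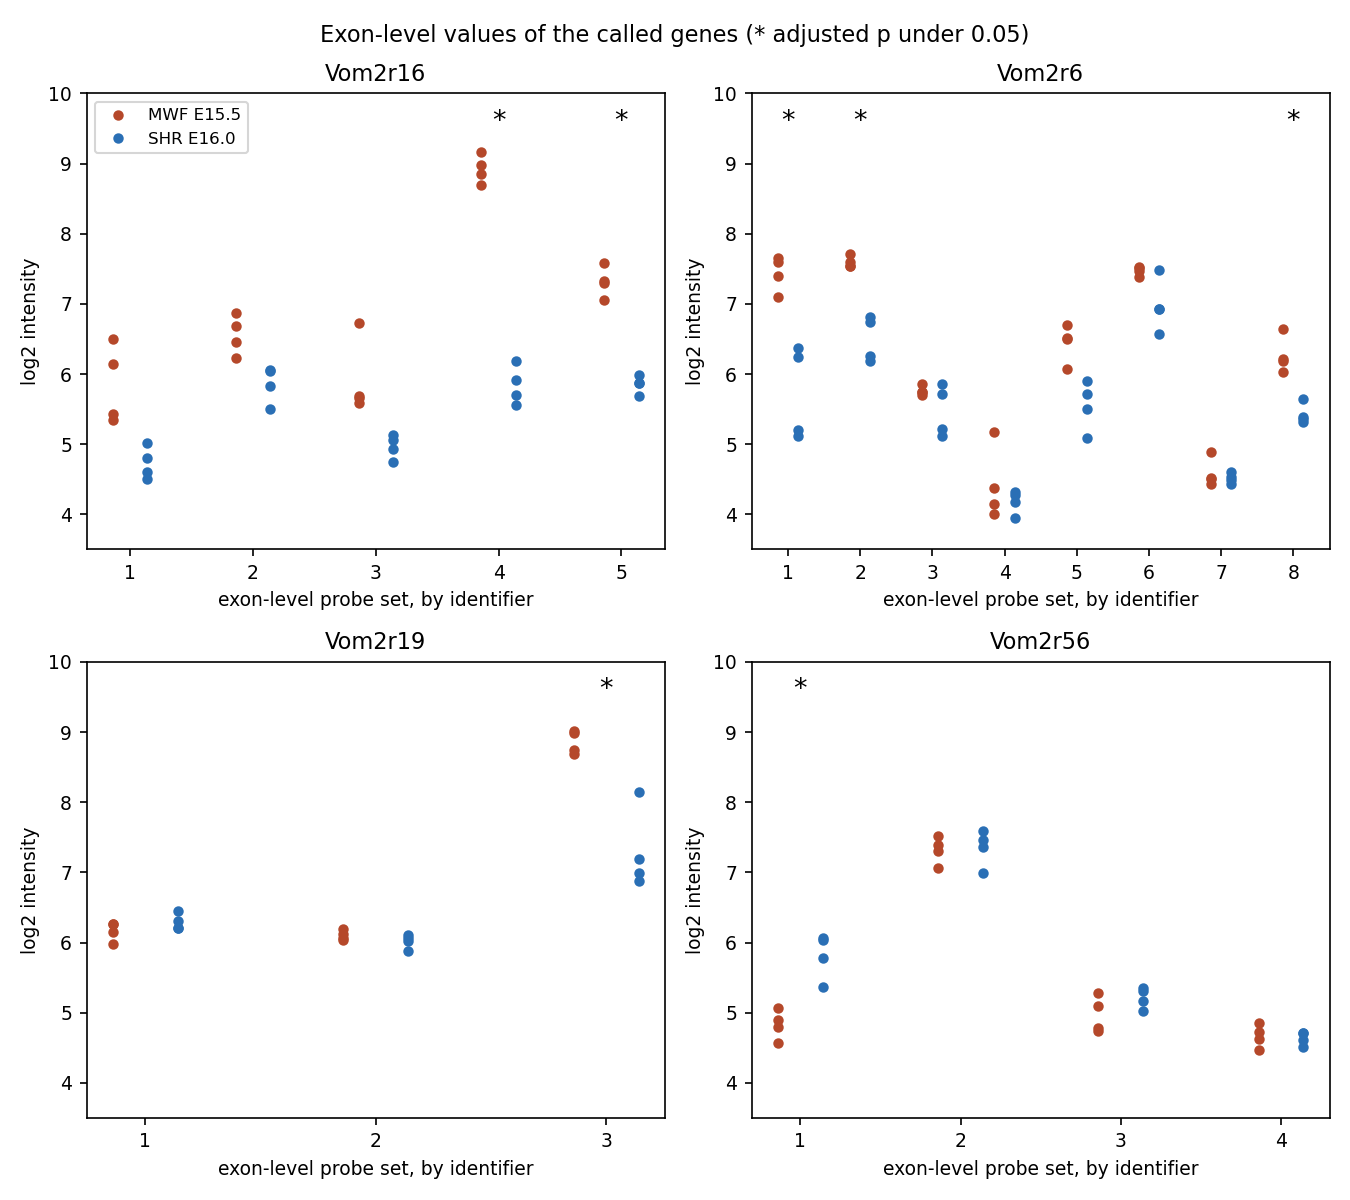
Log2 intensity (y axis) of each exon-level probe set (x axis, in order of identifier) of Vom2r16, Vom2r6, Vom2r19 and Vom2r56, with 4 MWF and 4 SHR arrays per probe set. All 5 probe sets of Vom2r16 are higher in MWF without overlap, while in Vom2r19 the difference lies in 1 probe set of 3.

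The gene-level value of a vomeronasal receptor often was that of a single bright exon-level probe set. In 27 of 44 members (61.4%) all 8 gene-level values equalled those of 1 exon-level probe set in every deposited digit, against 26.6% of all gene-level probe sets and 83.6% of the odorant receptors. In 23 of the 27 that probe set carried the same gene symbol, and in 21 of these 23 it was the brightest of its gene, the exceptions being Vom2r50 and Vom1r93. Among all other genes with a single symbol it was the brightest in 729 of 1041 (70.0%), against 91.3% of the members. Of the 41 gene-level members that have exon-level probe sets, 40 lay above the median of those probe sets and Vom1r93 equalled it, with a median gap of 1.15 log2 units over the 41. For these members the gene-level value is therefore mostly higher than that of their typical exon-level probe set. The medians of all members, 6.51 at gene level and 5.34 at exon level, come from unlike sets of 41 and 124 genes, of which 38 are shared. Of the 27 members with such equal values 1 was called (Vom2r19, 3.7%), against 4.43% of all gene-level probe sets with equal values, and of the other 17, 4 were called (23.5%), against 7.37% of all others. The gene-level difference had the same sign as the median exon-level difference in 34 of 41 members.

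The members lie in clusters on 7 chromosomes in the RefSeq table of GRCr8. Chromosome 1 holds 25 of the 44 probe sets, from 24 genes, and all 3 called higher in MWF. Chromosome 7 holds 4, from Vom2r54 and Vom2r56, with both called lower. Chromosome 4, with 7 probe sets, chromosome 12, with 4, chromosome 2, with 2, and chromosomes 14 and 18, with 1 each, held no call. Vom2r6 is next to Vom2r5, with no annotated gene between them, and Vom2r5 had a difference of -0.29 that did not pass. Vom2r17, which lies between Vom2r16 and Vom2r19 with 5 and 1 annotated genes to either side, had a difference of 0.08. Neither neighbour passed the test. Vomeronasal receptors are close copies of each other, and how far a probe set also measures a related gene was not tested.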

How the data were processed

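Total RNA of whole embryonic kidneys was hybridised to Affymetrix rat gene arrays with biotin label, per the labels. The deposited values are log2 intensities that the authors had summarised per gene and per exon probe set and, judging by array medians that are nearly equal, normalized between arrays. The submitters' processing notes name Partek. No source used here gives its version, the background correction, the summary method or the array's genome build. Arrays have no read depth, and their number limits the precision.

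Probe sets took their names from the platform annotation, and symbols were brought up to date with RefSeq (GRCr8) by gene identifier, symbol or unique synonym. All 44 gene-level and 473 exon-level members matched. Each level was fitted whole with limma 3.58.1 under R 4.3.3, using lmFit and eBayes with strain as the term and 4 arrays against 4. Adjustment was by Benjamini-Hochberg over all probe sets of the level. The fit was tested on simulated data with known changes, of which it recovered fewer at exon level than at gene level.

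The members and gene lists were chosen with earlier results of these data known. Genes were named by rule: called members, the 5 largest differences in each direction, the 6 brightest and dimmest, the 3 largest and smallest within-strain SDs, genes with most called exon-level probe sets, and up to 4 whose levels disagree in sign. The bright pseudogenes, Vom2r9, Vom2r5, Vom2r17, Vom2r65 and the genes outside the families were named after their values were seen. Alternatives were quantile normalization, median centring, leaving out dim probe sets, a trended robust variance, weights per array, a block for the replicate number, arrays left out, platform symbols and 1 probe set per gene.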

Additional observations from a re-analysis of the deposited data

Results flagged for a closer look

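In 3 of 104 groups of 4 arrays, 1 array lay far from the other 3 by Dixon's criterion, which chance alone meets in about 1 of 20 groups. Vom2r75 had 7.379 in MWF replicate 3, with a gap to the nearest array of 0.946 of the group's range. Vom2r31 had 6.687 in MWF replicate 3, with a gap of 0.831 of the range. Vom2r7 had 5.151 in MWF replicate 1, with a gap of 0.902 of the range. None of these 3 members passed the test between strains.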

How the results depend on the processing

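Without each array in turn, the called gene-level members ranged from 5 (11.4%) to 6 (13.6%), and calls over all from 3.63% to 10.7%. Members without overlap ranged from 8 (18.2%) to 13 (29.5%). The share over all probe sets ranged from 17.2% to 24.0%, against 14.4% with all arrays. The 13 came without SHR replicate 3, beside 18.5% of all. The 24.0% came without SHR replicate 2, beside 12 members (27.3%). The called exon-level members ranged from 4 to 7 of 473, and calls over all from 1.13% to 2.91%. The median percentile of gene-level members ranged from 7.72 to 8.77 and their median difference from 0.026 to 0.088. Over all probe sets the calls ranged from 775 to 2279 at gene level, with 1407 in all arrays. At exon level they ranged from 2405 to 6210, with 4112 in all arrays. With MWF replicate 1 and SHR replicate 2 left out, 2180 gene-level probe sets were called and 13 members did not overlap (29.5%, against 31.0% of all probe sets). At exon level 5 of 473 members were called, against 2.5% of all probe sets. Array weights gave 2397 gene-level calls (11.2% of all) and 7 called members (15.9%). Leaving out probe sets dimmer than the median kept 2 gene-level members and gave 872 gene-level calls (8.16% of all kept). It gave 0 called gene-level members, and 1 member without overlap, against 14.6% of all kept. At exon level 1 of 18 members tested was called, against 3.48% of all kept. The median percentile of the gene-level members was then 37.96 and their median difference -0.084. With 1 probe set per symbol 3 members were called (7.32%, against 6.58% of all). Medians of exon-level probe sets gave a median difference of -0.051, so the sign of that small median is not settled. The replicate block gave 1312 gene-level calls (6.14% of all) with 5 members (11.4%). At exon level it gave 2172 calls (1.02% of all) with 5 of 473 members, without Vom2r19, Vom2r56 and Vom2r-ps53. It changed no member's call at gene level. Arrays with the same replicate number correlated at 0.28, 0.15, 0.098 and 0.16 in their deviations at gene level, not each over 0.1, so the numbers were not taken as pairs, and not every array correlated best with its own number. Of 338 alternative values of the named gene-level probe sets, 324 kept direction and side of the threshold, and 2 were newly called: Vom2r4 without SHR replicate 4 (-1.35) and Vom2r23 without MWF replicate 1 and SHR replicate 2 (0.73). The other 12 changed sign in 4 members that were called in none of these settings. Vom2r28 (-0.00902 in all arrays) had 0.045 without the same pair, 0.05 with array weights, and 0.029, 0.013, 0.019 and 0.00693 without MWF replicate 1, MWF replicate 4, SHR replicate 1 and SHR replicate 2. Vom2r50 (-0.09) had 0.155 without MWF replicate 3 and 0.1 without SHR replicate 1, with a lowest value of -0.331 without MWF replicate 4. Vom2r62 (0.13) had -0.055 without the pair, -0.00256 without MWF replicate 4 and -0.011 without SHR replicate 2, with a highest value of 0.255 without MWF replicate 3. Vom2r15 (0.14) had -0.00938 without SHR replicate 3 and at most 0.232, without MWF replicate 1. The cause of these changes was not tested, except that fewer probe sets or arrays enter where some are left out.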
